A study of Homo sapiens with 10 samples.

Results

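The levels of 10 effector genes of the integrated stress response were compared across HEK293T cells that overexpressed the kinases BRSK2 or BRSK1. They were the 10 gene symbols CHAC1, SESN2, DDIT4, TRIB3, PPP1R15A, ATF4, ATF5, ATF3, DDIT3 and CEBPB, found by name among the 58676 genes of the count tables. They were chosen by name with the log2 fold changes of these data between kinase and control libraries already known, and no threshold was applied to those values. The members' differences between kinase and control libraries, and between the kinases, are therefore given as a description. Members that passed a test are named and counted, but their p-values are not printed. These differences and calls support nothing by themselves. The libraries came from HEK293T, a transformed human embryonic kidney line, grown in DMEM with serum. In 3 libraries BRSK2 and in 3 libraries BRSK1, both AMPK-related serine/threonine kinases, had been overexpressed for 24 h, and in 2 libraries hcRED, a red fluorescent protein, for the same 24 h. The 2 remaining libraries are labelled Mock, with no agent or time given for them. The hcRED and Mock libraries are called the controls. The labels do not say how the genes were introduced or what drove them, and do not state that the samples were separate cultures, so the errors and p-values measure library-to-library spread that could be purely technical.

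The integrated stress response begins when kinases that sense amino acid shortage, misfolded protein, double-stranded RNA or mitochondrial damage phosphorylate the translation factor eIF2alpha. Global translation then falls while the ATF4 mRNA, which carries upstream open reading frames, is translated more, and the ATF4 protein activates a set of target genes. Because ATF4 is controlled mainly at translation, its mRNA level does not report its protein level. Of the members, ATF4, ATF5, ATF3, DDIT3 (CHOP) and CEBPB encode transcription factors with basic leucine zippers. CHAC1 degrades glutathione, SESN2 and DDIT4 (REDD1) restrain mTORC1, TRIB3 is a pseudokinase that binds AKT and ATF4, and PPP1R15A (GADD34) recruits the phosphatase that removes the phosphate from eIF2alpha.

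Total counts ran from 16516116 to 24304302 per library, and 16936 genes, all 10 members included, passed the filter on low counts. The overexpressed gene took 6.99%, 9.08% and 10.4% of all counts in BRSK2 replicates 1, 2 and 3, and 4.72%, 6.52% and 6.96% in BRSK1 replicates 1, 2 and 3. In the controls BRSK2 had 73.5 to 99.0 and BRSK1 10.3 to 28.7 counts-per-million (CPM). Each of 10 HEK293T markers was detected in every library, with a summed level of 474 to 558 CPM. Of them, 3 were called higher and 1 lower with BRSK2 (4.77% and 3.05% of all tested genes). The 16 markers of other cell types summed to 30.01 to 37.3 CPM in BRSK2, 28.1 to 38.5 in BRSK1, 37.9 to 38.4 in hcRED and 39.8 to 44.0 in Mock libraries, most of it COL1A1. PTPRC and INS were at 0 in every library. The part of these markers in the results was not tested.

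The promoters of 4 members are shown: those of the 3 genes called higher with BRSK2, and that of ATF3, which with CHAC1 held a composite ATF4 site. RefSeq start sites on GRCh38.p14, the same assembly as the hg38 of the files, gave 18 windows of 250 bases before a start for the 10 members. Each was searched on both strands for TGATGNAA (a composite site bound by ATF4 with C/EBP proteins), TGACGTCA (the cAMP response element), TGANTCA (an AP-1 element) and CCAAT, and no 2 of the matches in members' windows overlapped. Capitals mark the matches. For SESN2, PPP1R15A and ATF3, bases from the first exon of the gene's GENCODE 29 transcript models onward were left out, where the window reached one. For CHAC1 an exon of a longer model already covers the start of the window, so only the 30 bases around its match are shown. Those 30 bases were not cut at exons and may lie inside one. All 4 are on the plus strand, written 5′ to 3′.
CHAC1, chr15:40953251-40953280: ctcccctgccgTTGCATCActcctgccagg
SESN2, chr1:28259268-28259517: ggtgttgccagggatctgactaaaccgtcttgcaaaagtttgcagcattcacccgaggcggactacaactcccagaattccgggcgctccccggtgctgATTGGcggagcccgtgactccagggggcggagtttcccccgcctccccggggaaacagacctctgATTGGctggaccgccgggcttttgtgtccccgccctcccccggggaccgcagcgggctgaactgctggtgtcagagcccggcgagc
PPP1R15A, chr19:48872171-48872391: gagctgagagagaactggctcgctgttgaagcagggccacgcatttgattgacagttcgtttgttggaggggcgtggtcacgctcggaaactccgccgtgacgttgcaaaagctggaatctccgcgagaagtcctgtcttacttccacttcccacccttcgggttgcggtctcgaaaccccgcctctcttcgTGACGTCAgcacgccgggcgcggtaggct
ATF3, chr1:212565157-212565333: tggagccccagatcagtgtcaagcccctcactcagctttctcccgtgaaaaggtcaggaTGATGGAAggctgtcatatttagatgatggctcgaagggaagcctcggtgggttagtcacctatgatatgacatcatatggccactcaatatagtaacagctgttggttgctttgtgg

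The composite site was matched in CHAC1, 209 to 202 bases before its start on the minus strand, and in ATF3, 191 to 184 bases before the upstream one of its start sites. No other member's window held it. By windows, 2 of the members' 18 held it, and 3.14% of the 35116 windows of all genes did. PPP1R15A alone among the members held the cAMP response element, 58 to 51 bases before its start (1 of 18 member windows, 1.65% of all windows). The AP-1 element was matched in ATF5 and DDIT3 (3 of 18 member windows, 6.57% of all windows). CCAAT was matched in 6 members, CHAC1, SESN2, ATF3, DDIT3, DDIT4 and CEBPB (7 of 18 member windows, 11240 of all 35116). Each DDIT3 match was counted in 2 windows, which overlap. The windows of ATF4 and TRIB3 held none of the 4. These are matches of letters within 250 bases only and describe neither binding nor regulation.

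CHAC1 (ENSG00000128965; hg38 chromosome 15, plus strand, 40952962 to 40956519), whose enzyme cleaves glutathione, rose with BRSK2. Its level, in CPM after TMM scaling as in all that follows, was 11.3, 13.7 and 14.6 in BRSK2 replicates 1, 2 and 3 and 5.92, 8.54 and 9.84 in BRSK1 replicates 1, 2 and 3. It was 8.53 and 7.88 in hcRED replicates 1 and 3 and 5.70 and 5.69 in Mock replicates 2 and 3. All 3 BRSK2 libraries lay above each of the 7 others, while the BRSK1 libraries overlapped the hcRED ones. The log2 fold change against the controls was 0.95 ± 0.15 (SE; 1.93-fold) for BRSK2 and 0.25 ± 0.15 for BRSK1. The BRSK1 value depended on the control, at -0.01 ± 0.18 against hcRED alone and 0.51 ± 0.19 against Mock alone. These bulk values do not separate more cells expressing a gene from more RNA per cell.

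SESN2 (ENSG00000130766; chromosome 1, plus strand, 28259527 to 28282491), a leucine-binding sestrin that inhibits mTORC1, also rose with BRSK2. It stood at 211, 261 and 265 CPM in the BRSK2 libraries and at 164, 174 and 181 in the BRSK1 libraries. The controls stood at 152 and 186 CPM (hcRED) and 150.4 and 143 CPM (Mock). The lowest BRSK2 library was above the highest control, hcRED replicate 3, and all 3 BRSK1 libraries lay within the range of the controls. Its log2 fold change was 0.64 ± 0.08 (1.56-fold) for BRSK2 and 0.13 ± 0.08 for BRSK1. CHAC1 and SESN2 passed for BRSK2 under each of the 17 alternative settings run, with log2 fold changes from 0.69 to 1.21 and from 0.54 to 0.74. All these settings draw on the same libraries, and both genes were picked with this comparison known, so the passes are a description too.

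PPP1R15A (ENSG00000087074; chromosome 19, plus strand, 48872392 to 48876057), which closes the feedback loop on eIF2alpha, had the largest fold change of the members with either kinase. Its levels were 49.0, 73.4 and 78.4 CPM with BRSK2, 47.5, 60.1 and 59.6 with BRSK1, 34.3 and 44.9 with hcRED and 31.0 and 25.4 in Mock. Every kinase library exceeded every control, although hcRED replicate 3 came close to the replicate 1 library of each kinase. The log2 fold change was 1.00 ± 0.19 for BRSK2, which passed the test, and 0.74 ± 0.19 (1.67-fold) for BRSK1, which did not. The BRSK2 call was lost against hcRED alone (0.76 ± 0.23) and without Mock replicate 2 (1.07 ± 0.23) or 3 (0.93 ± 0.23), BRSK2 replicate 2 (0.93 ± 0.23) or 3 (0.88 ± 0.19), or hcRED replicate 1 (0.91 ± 0.21). The BRSK1 value of PPP1R15A passed by DESeq2 (0.74 ± 0.21) and without BRSK2 replicate 1 (0.74 ± 0.11).

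TRIB3 (ENSG00000101255; chromosome 20, plus strand, 362835 to 397559) varied little. It stood at 39.3, 40.7 and 45.04 CPM with BRSK2, 34.2, 34.9 and 37.1 with BRSK1, 32.7 and 33.9 with hcRED and 39.1 and 37.2 in Mock. The BRSK2 libraries lay above all controls, but only just above Mock replicate 2. The log2 fold change was 0.23 ± 0.07 for BRSK2 and -0.01 ± 0.07 for BRSK1, and neither passed. The BRSK2 value of TRIB3 passed against hcRED alone (0.32 ± 0.09) and without BRSK2 replicate 1 (0.27 ± 0.08), and was 0.13 ± 0.09 against Mock alone and 0.12 ± 0.07 when scaled by library totals.

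DDIT4 (ENSG00000168209; chromosome 10, plus strand, 72273920 to 72276036), the stress-induced inhibitor of mTORC1 upstream of TSC2, was the member that fell. It was at 71.5, 62.4 and 58.4 CPM with BRSK1, 93.7, 92.9 and 87.5 with BRSK2, 94.7 and 68.2 with hcRED and 119.9 and 100.2 in Mock. Only 2 of the 3 BRSK1 libraries were below the lowest control, since hcRED replicate 3 was below BRSK1 replicate 1. The log2 fold change was -0.56 ± 0.11 for BRSK1, which passed, and -0.05 ± 0.10 for BRSK2, which did not. The BRSK1 call was lost against hcRED alone (-0.35 ± 0.12) and without BRSK1 replicate 2 (-0.54 ± 0.13) or BRSK1 replicate 3 (-0.50 ± 0.12). Against hcRED alone the BRSK2 value of DDIT4 turned to 0.17 ± 0.13, and against Mock alone it was -0.27 ± 0.12.

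**Figure D1:**
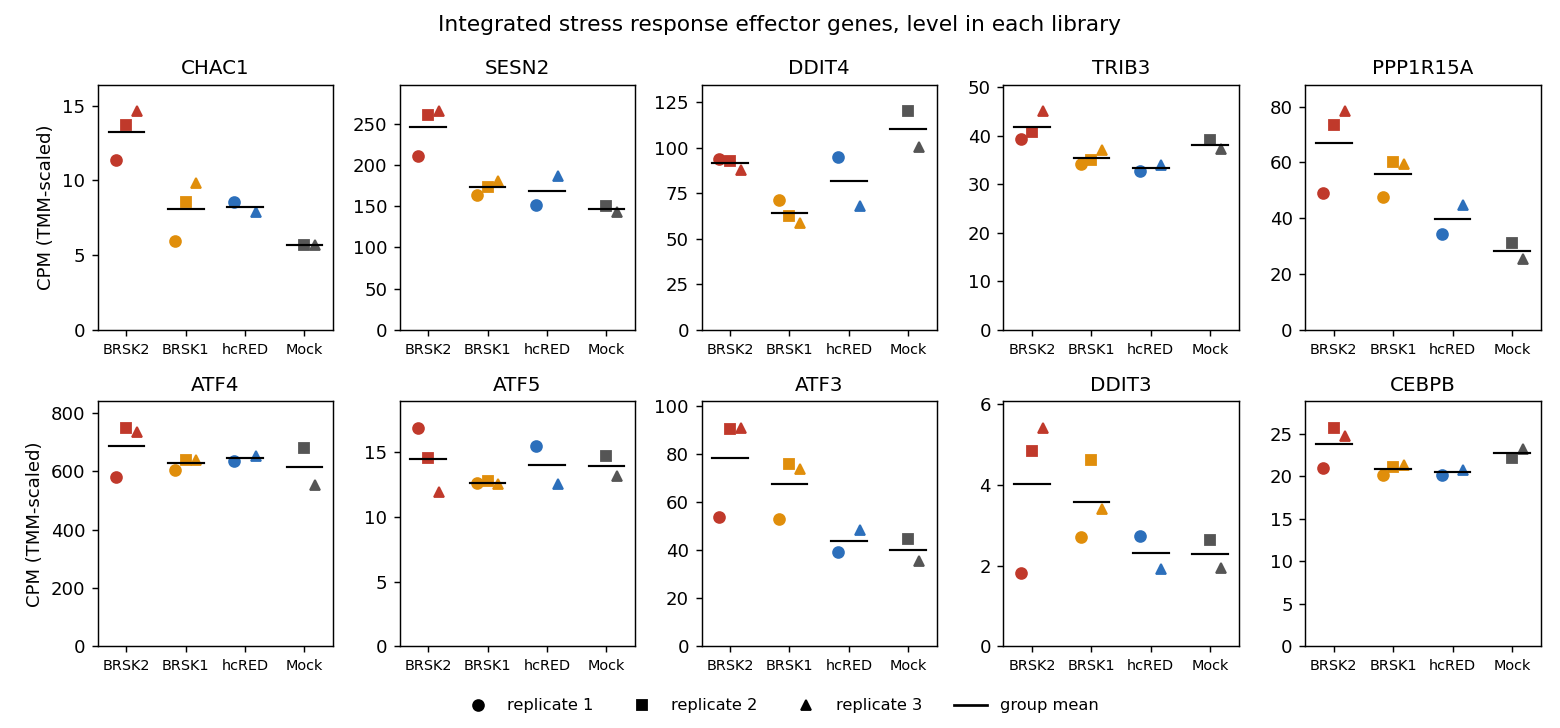
Level of each of the 10 genes (TMM-scaled counts-per-million, linear axis from 0) in BRSK2, BRSK1, hcRED and Mock libraries, with 1 point per library, the symbol giving the replicate number and the bar the group mean. CHAC1 and SESN2 lie highest in the BRSK2 libraries, PPP1R15A and ATF3 in the libraries of both kinases, and DDIT4 lowest with BRSK1.

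Among the transcription factors, ATF3 (ENSG00000162772; chromosome 1, plus strand, 212565334 to 212620777), a stress- and growth factor-induced repressor and activator, had the largest differences. It stood at 53.8, 90.4 and 91.0 CPM with BRSK2, 52.8, 76.1 and 73.9 with BRSK1, 39.3 and 48.3 with hcRED and 44.6 and 35.7 in Mock. The 6 kinase libraries were above all 4 controls, and in each kinase group replicate 1 was far below the other 2 libraries. The log2 fold changes, 0.90 ± 0.24 with BRSK2 and 0.69 ± 0.24 with BRSK1, did not pass. Without BRSK2 replicate 1 both passed, at 1.11 ± 0.17 and 0.69 ± 0.15, and by DESeq2 the BRSK2 value of ATF3 did (0.90 ± 0.24).

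DDIT3 (ENSG00000175197; chromosome 12, minus strand, 57516588 to 57520517), the pro-apoptotic factor CHOP, was the scarcest member, with 33 to 104 reads per library. It was at 1.81, 4.82 and 5.41 CPM with BRSK2, 2.70, 4.604 and 3.40 with BRSK1, 2.73 and 1.91 with hcRED and 2.62 and 1.93 in Mock. BRSK2 replicate 1 held the lowest DDIT3 level of all 10 libraries while the other BRSK2 libraries held the highest 2. The log2 fold changes were 0.80 ± 0.31 with BRSK2 and 0.63 ± 0.31 with BRSK1 and did not pass. Without BRSK2 replicate 1 the BRSK2 value of DDIT3 was 1.15 ± 0.24 and passed, as it did with no filter on low counts (0.79 ± 0.22). DDIT3 shares 982 bases with MARS, which lies on the opposite strand at a mean of 302 CPM of total counts, and the strand setting of the counting is not given, so reads of the shared stretch cannot be told apart.

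ATF4 itself (ENSG00000128272; chromosome 22, plus strand, 39519695 to 39522685) was abundant and nearly level. It was at 580.4, 748 and 732 CPM with BRSK2, 602, 639 and 639 with BRSK1, 635 and 651 with hcRED and 679 and 551 in Mock. The groups overlapped, and the log2 fold changes were 0.13 ± 0.08 with BRSK2 and -0.01 ± 0.08 with BRSK1. ATF4 passed for BRSK2 only without BRSK2 replicate 1 (0.23 ± 0.07) among the settings run. ATF5 (ENSG00000169136; chromosome 19, plus strand, 49928702 to 49933935), like ATF4 translated through upstream reading frames, spanned 11.9 to 16.9 CPM with BRSK2 and 12.5 to 12.8 with BRSK1, against 12.5 to 15.5 in the controls. Its log2 fold changes were 0.05 ± 0.12 and -0.14 ± 0.12. CEBPB (ENSG00000172216; chromosome 20, plus strand, 50190734 to 50192689), which dimerizes with the other bZIP factors, spanned 21.0 to 25.7 CPM with BRSK2, 20.2 to 21.3 with BRSK1 and 20.2 to 23.3 in the controls, with log2 fold changes of 0.15 ± 0.09 and -0.05 ± 0.09. ATF5 also overlaps the antisense gene NUP62 over 1062 bases (115 CPM of total counts).

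Counted over the members, 3 of 10 passed edgeR's quasi-likelihood test as higher with BRSK2 (CHAC1, SESN2 and PPP1R15A) and 0 as lower, where 4.77% of all tested genes were called higher, 3.05% lower and 7.82% in either direction. At an unadjusted p under 0.05, 6 were higher and 0 lower, where 3901 of the 16936 tested genes passed in either direction. DESeq2 called 4 members higher and 0 lower, and 1333 genes in all. All 3 BRSK2 libraries lay above all 4 controls for 5 members (9.09% of all tested genes), and all 3 BRSK1 libraries for 2 (9.93%). They lay below all controls for 0 members with either kinase (8.2% of all tested genes with BRSK2 and 8.44% with BRSK1). With BRSK1, 0 were called higher and 1 lower (DDIT4), where 3.77% and 2.66% of all genes were, 6.43% in either direction. At an unadjusted p under 0.05 with BRSK1, 2 were higher and 1 lower, where 3693 of 16936 genes passed in either direction. DESeq2 called 1 member higher and 1 lower with BRSK1, and 1120 genes in all. The members' median log2 fold change was 0.43 with BRSK2 and 0.06 with BRSK1, against 0.00 for all tested genes in each comparison. Because these comparisons were known when the members were picked, nothing is read from the shares. The 2 comparisons also use the same 4 control libraries.

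The authors' deposited table for BRSK2 lists 4 members, SESN2 (log2 fold change 0.65), PPP1R15A (0.99), CHAC1 (0.94) and ATF3 (0.88). Their deposited table for BRSK1 lists 3, ATF3 (0.69), PPP1R15A (0.75) and DDIT4 (-0.55). ATF3 in both and PPP1R15A with BRSK1 are thus called by the authors' deposited tables and not by the test used here.

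**Figure D2:**
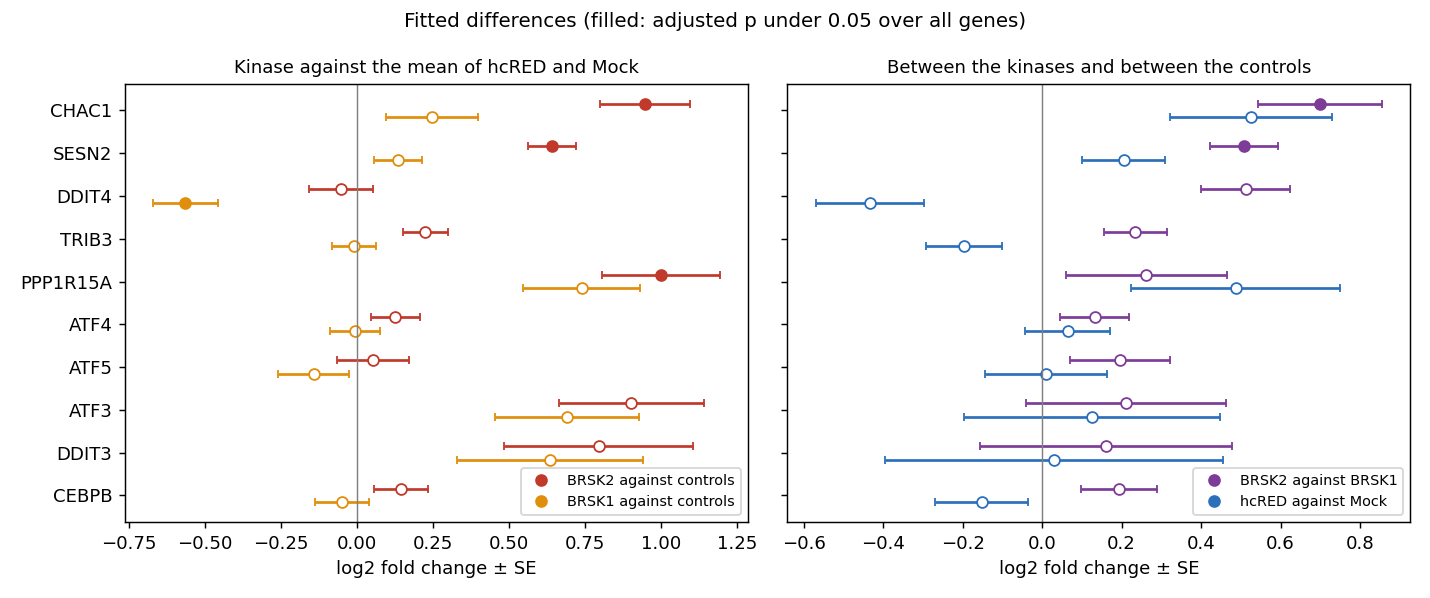
Fitted log2 fold changes of the 10 genes with standard errors, for each kinase against the mean of hcRED and Mock (left) and for BRSK2 against BRSK1 and hcRED against Mock (right). Filled points passed at an adjusted p under 0.05 over all genes: CHAC1, SESN2 and PPP1R15A for BRSK2, DDIT4 for BRSK1, and CHAC1 and SESN2 between the kinases.

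The kinases were then set against each other. All 10 members had a positive log2 fold change for BRSK2 over BRSK1. CHAC1 (0.70 ± 0.16) and SESN2 (0.51 ± 0.08) passed, so 2 of 10 were called higher, where 0.23% of all tested genes were, and 0 lower, where 0.118% were (0.348% in either direction). At an unadjusted p under 0.05 the counts were 4 higher and 0 lower (2094 of 16936 genes in either direction), and DESeq2, which gave no adjusted p for 4 members, called 2 higher (SESN2 and DDIT4) and 0 lower. DDIT4 stood at 0.51 ± 0.11 and TRIB3 at 0.23 ± 0.08, and neither passed. With CHAC1 and SESN2 they were the 4 members whose BRSK2 libraries all lay above the BRSK1 libraries (8.65% of all tested genes), and 0 members had the reverse (9.02%). The other 6 members lay between 0.13 and 0.26. The comparison shares its libraries with those above and is likewise a description. The CHAC1 call was lost without any 1 of the 3 BRSK1 libraries (0.52 to 0.86), BRSK2 replicate 2 (0.67) or 3 (0.63), or either hcRED library (0.70 in both). The SESN2 call was lost without BRSK2 replicate 2 (0.46) or 3 (0.45) or BRSK1 replicate 1 (0.47) or 2 (0.51). Without BRSK2 replicates 2 or 3, or BRSK1 replicates 1 or 2, 0 members were called.

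Between the controls, 0 of 10 members passed edgeR's quasi-likelihood test for hcRED against Mock, where 0.0295% of all tested genes did, 0.0059% as higher and 0.0236% as lower. The kinase libraries are not part of this comparison and enter it only through the shared filter, scaling and estimate of spread. Without BRSK2 replicate 1, 49 genes were called here instead of 5. Both hcRED libraries lay above both Mock libraries for 3 members, CHAC1, SESN2 and PPP1R15A (20% of all tested genes), and below them for 3, DDIT4, TRIB3 and CEBPB (20.3%). The differences closest to the threshold were DDIT4, lower with hcRED by -0.43 ± 0.14 (adjusted p = 0.352), and CHAC1, higher by 0.53 ± 0.20 (adjusted p = 0.434). These were the 2 members with an unadjusted p under 0.05 (1516 of 16936 genes), and DESeq2 called 0. DDIT4 passed without hcRED replicate 1 (-0.69 ± 0.12, adjusted p = 0.0237) and with no filter (-0.44 ± 0.09, adjusted p = 0.00126), and its adjusted p lay between 0.00126 and 0.997 over the alternatives. PPP1R15A stood at 0.49 ± 0.26 (adjusted p = 0.639), SESN2 at 0.21 ± 0.10 (0.58) and TRIB3 at -0.20 ± 0.10 (0.554). The standard errors, from 2 libraries a group, ran from 0.10 for TRIB3 to 0.43 for DDIT3. A difference near the standard error of its own gene was therefore not detectable.

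Within each kinase group the libraries were not alike for these genes. BRSK2 replicate 1 was the lowest BRSK2 library for 8 of the 10 members, and BRSK1 replicate 1 the lowest BRSK1 library for the same 8, all except ATF5 and DDIT4. Over all tested genes, BRSK2 replicate 1 was the lowest of its group for 38.2% and BRSK1 replicate 1 for 32.4%. In log2 CPM BRSK2 replicate 1 lay below its group mean by -0.97 for DDIT3, -0.50 for ATF3, -0.42 for PPP1R15A and -0.23 for ATF4, while DDIT4 (0.04) and ATF5 (0.24) lay above. The replicate 1 libraries were also those with the smallest share of counts from the overexpressed kinase, 6.99% for BRSK2 and 4.72% for BRSK1. The part of that share in these differences was not tested. Without BRSK2 replicate 1, 7 members were called higher with BRSK2 (ATF4, ATF3, DDIT3, CHAC1, SESN2, TRIB3 and PPP1R15A) and 2 with BRSK1 (ATF3 and PPP1R15A). The calls over all genes rose at that setting too, from 1325 to 2211 with BRSK2 and from 1089 to 1751 with BRSK1. BRSK2 replicate 1 is not part of the BRSK1 comparison and enters it only through the shared filter, scaling and estimate of spread.

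**Figure D3:**
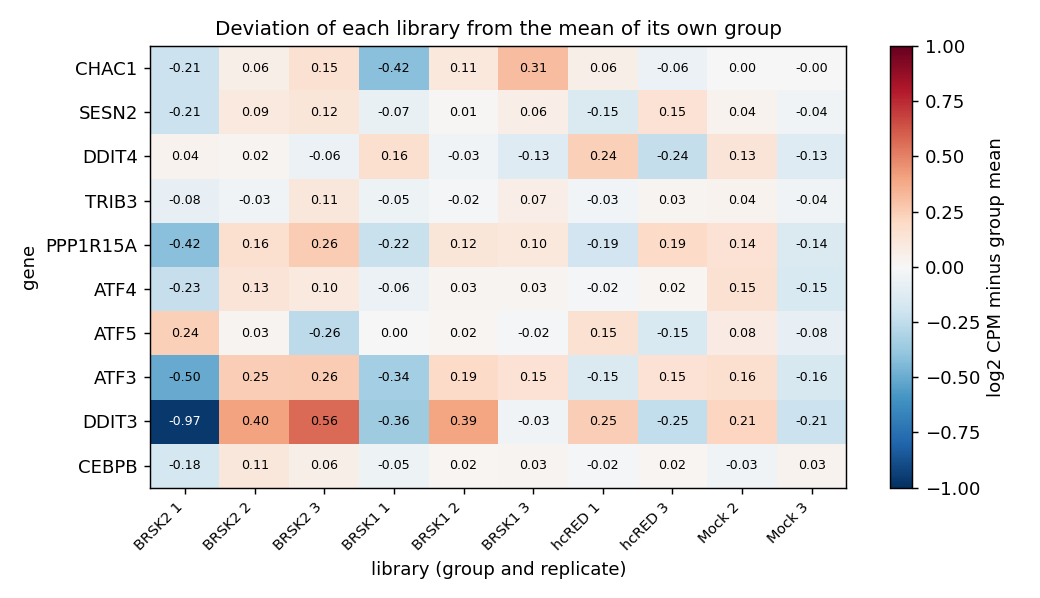
Log2 CPM of each gene in each library minus the mean of that library's own group (red above, blue below, values printed in the cells). The column of BRSK2 replicate 1 is negative for 8 genes, down to -0.97 for DDIT3, and the column of BRSK1 replicate 1 for the same 8, down to -0.42 for CHAC1.

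The spread between libraries of a group differed among the members. The pooled within-group SD of log2 CPM was 0.56 for DDIT3, 0.33 for ATF3 and 0.28 for PPP1R15A. Of the tested genes at a mean level within 2-fold of each, 98.1%, 99.6% and 99.4% had a smaller SD. TRIB3 (0.07) and CEBPB (0.10) were steadier than most, with 20.7% and 28.9% of genes of like level below them. CHAC1 stood at 0.24 and SESN2 at 0.14.

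Per kilobase of gene length as the authors' deposited tables give it, ATF4 was the most abundant member, at 257 ± 24.6 CPM per kilobase (mean ± SD over the 10 libraries). SESN2 (54.7 ± 12.7) and DDIT4 (41.3 ± 9.41) followed, with ranges over libraries that overlapped. PPP1R15A (16.3 ± 5.69), ATF3 (range 8.84 to 22.5), CEBPB (11.3 ± 0.991) and TRIB3 (10.9 ± 1.10) overlapped one another. ATF5 (4.64 ± 0.54), CHAC1 (4.46 ± 1.56) and DDIT3 (2.52 ± 1.04) were the lowest and overlapped as well. ATF4 overlapped no other member.

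Across the 10 libraries, which share the same groups and scaling, the members' log2 CPM moved together to different degrees. The closest pair was ATF3 with PPP1R15A (Pearson's r = 0.96), then CHAC1 with SESN2 (0.91), SESN2 with PPP1R15A (0.86), ATF3 with DDIT3 (0.84), CHAC1 with PPP1R15A (0.82) and CEBPB with TRIB3 (0.82). Among all other tested genes with a mean of at least 5 CPM, NFKBIL1 was the most like PPP1R15A (0.99), PARP6 the most like ATF3 (0.98), GPKOW the most like CHAC1 (0.97) and PDPK1 the most like SESN2 (0.96). PRKAR1B was the most like DDIT4 (0.96), C1orf43 the most like DDIT3 (0.96), SARS the most like ATF4 (0.94), SMARCD1 the most like CEBPB (0.92) and RBM10 the most like ATF5 (0.91). NFKBIL1 rose by 0.69 ± 0.11 with BRSK2 and 0.53 ± 0.11 with BRSK1, and PARP6 by 0.40 ± 0.09 and 0.33 ± 0.09. These are descriptions of 10 points in 4 groups, the highest among 11068 genes each.

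The rest of the pathway was examined by lists of genes drawn up from their known roles, which overlap in part. The lists, like the members, were chosen with earlier results of these data known. Their counts and adjusted p-values for the kinase comparisons are therefore a description and support nothing by themselves. Of 13 tested paralogs of the members, 1 was higher and 0 lower with BRSK2 (background 4.77% and 3.05%), and 0 higher and 2 lower with BRSK1 (3.77% and 2.66%). JDP2, a close relative of ATF3, rose with BRSK2 by 0.67 ± 0.14 (edgeR quasi-likelihood adjusted p = 0.00401) and was at 0.15 ± 0.14 with BRSK1. CEBPA fell with BRSK1 by -0.50 ± 0.13 (adjusted p = 0.0273), as did TRIB1, by -0.30 ± 0.09 (adjusted p = 0.0473). The controls themselves differed for these genes, though without passing. For hcRED against Mock, TRIB1 was at -0.51 ± 0.12, JDP2 at 0.56 ± 0.19 and CEBPA at 0.23 ± 0.17. Values of these 3 genes against each control alone are not reported here. Paralogs of the members called with BRSK2 did not pass: CHAC2 was at -0.10 ± 0.11, SESN1 at -0.05 ± 0.09, SESN3 at -0.20 ± 0.08 and PPP1R15B, the constitutive phosphatase partner, at -0.05 ± 0.06.

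The machinery upstream of ATF4 was counted next. Of 22 genes for eIF2alpha kinases, eIF2 and eIF2B subunits and their regulators, 0 passed edgeR's quasi-likelihood test with either kinase. Over all tested genes 7.82% passed with BRSK2 and 6.43% with BRSK1, so a list of 22 would hold few calls at those shares. With BRSK2, 5 of the 22 had an unadjusted p under 0.05 and DESeq2 called 1, and with BRSK1 7 had and DESeq2 called 0. Over all 16936 tested genes, 3901 had such a p with BRSK2 and 3693 with BRSK1. The list's median was 0.01 with BRSK2 and -0.02 with BRSK1. The sensor kinases stood at -0.04 ± 0.05 (EIF2AK1, HRI), -0.12 ± 0.09 (EIF2AK2, PKR), 0.28 ± 0.10 (EIF2AK3, PERK) and -0.05 ± 0.06 (EIF2AK4, GCN2) with BRSK2. Their activity, set by phosphorylation, was not measured.

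ATF4-linked genes of amino acid metabolism moved in both directions. Of 22 tested, 3 rose and 2 fell with BRSK2 by edgeR's quasi-likelihood test (background 4.77% higher and 3.05% lower). With BRSK1, 0 rose and 5 fell (background 3.77% higher and 2.66% lower). The list medians were -0.08 with BRSK2 and -0.12 with BRSK1. DESeq2 called 2 higher and 4 lower with BRSK2, and 1 higher and 5 lower with BRSK1. At an unadjusted p under 0.05 the counts were 4 and 5 with BRSK2, and 1 and 7 with BRSK1. ASNS, asparagine synthetase, rose with BRSK2 by 0.57 ± 0.17, MTHFD2 of mitochondrial folate metabolism by 0.33 ± 0.07 and SLC3A2, the heavy chain of amino acid exchangers, by 0.31 ± 0.08. The cystine carrier SLC7A11 and the serine synthesis enzyme PSAT1 were the 2 that fell, by -0.55 ± 0.09 and -0.30 ± 0.06. With BRSK1 the transporters SLC6A9 (-0.53 ± 0.09), SLC1A5 (-0.32 ± 0.07) and SLC7A5 (-0.31 ± 0.06) fell along with SLC7A11 and PHGDH (-0.20 ± 0.06). SLC7A11 was the only gene of the list called in the same direction with both. Of 13 genes for aminoacyl-tRNA synthetases and tRNA export, 0 were called with BRSK2 by edgeR's quasi-likelihood test. At an unadjusted p under 0.05, 2 were lower with BRSK2, and DESeq2 called 1. With BRSK1, 1 fell, IARS (-0.25 ± 0.07), and DESeq2 called 4 lower. At an unadjusted p under 0.05, 6 were lower and 0 higher with BRSK1 (3693 of 16936 tested genes in either direction). The list medians were -0.07 with BRSK2 and -0.11 with BRSK1.

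Of 21 other tested targets of ATF4 or CHOP, 7 rose with BRSK2 and 0 fell, and 5 rose and 1 fell with BRSK1, with list medians of 0.24 and 0.13. The background was 4.77% higher and 3.05% lower with BRSK2, and 3.77% and 2.66% with BRSK1. BBC3 (PUMA), a pro-apoptotic BCL2 relative, rose with both, by 0.92 ± 0.10 and 0.54 ± 0.10, as did the MAP kinase phosphatase DUSP8 (1.40 ± 0.16 and 1.05 ± 0.16) and the death receptor TNFRSF10B (0.24 ± 0.07 and 0.30 ± 0.07). The stress hormone GDF15 rose by 1.11 ± 0.33 with BRSK2 and 1.73 ± 0.31 with BRSK1, from a mean of only 1.42 CPM. NDRG1 rose with BRSK2 by 0.44 ± 0.07. For hcRED against Mock, NDRG1 was at -0.41 ± 0.09, DUSP8 at 0.61 ± 0.22 and GDF15 at 0.89 ± 0.48. BBC3 (-0.05 ± 0.13) and TNFRSF10B (0.21 ± 0.09) differed less between these controls, and none of the 5 passed there. STC2, a secreted glycoprotein, fell with BRSK1 by -0.25 ± 0.06 and was higher with BRSK2 than with BRSK1 by 0.34 ± 0.07 (edgeR quasi-likelihood adjusted p = 0.0282). BBC3, GDF15 and TNFRSF10B are p53 targets too and are counted in that list as well.

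Neighbouring programmes that share members or targets were counted in the same way. Over all tested genes the shares were 4.77% higher and 3.05% lower with BRSK2, and 3.77% and 2.66% with BRSK1. Nothing is read from counts of 1 gene in a list. In the IRE1 and ATF6 branches of the unfolded protein response, 1 of 26 genes rose with BRSK2, the sensor ERN1 (0.33 ± 0.10), and 4 with BRSK1, among them the chaperone HSP90B1 (0.32 ± 0.06) and PDIA4 (0.29 ± 0.06). Of 23 p53 targets, 8 rose and 1 fell with BRSK2 and 9 rose with BRSK1, among them CDKN1A, the cell cycle inhibitor p21 (0.34 ± 0.08 and 0.48 ± 0.08). Of 24 immediate early genes, a class to which ATF3 is often assigned, 11 rose with BRSK2 and 0 fell, and 4 rose and 1 fell with BRSK1. DUSP1 rose by 1.07 ± 0.09 with BRSK2 and 0.43 ± 0.09 with BRSK1. JUNB rose by 0.80 ± 0.11 with BRSK2 and was higher there than with BRSK1 by 0.94 ± 0.12 (edgeR quasi-likelihood adjusted p = 0.000134). For DDIT4, which hypoxia and glucocorticoids also induce, 13 hypoxia targets (2 higher and 2 lower with BRSK2, 0 and 3 with BRSK1) and 7 glucocorticoid targets (0 called with BRSK2, 0 higher and 1 lower with BRSK1) were counted. PER1 was that glucocorticoid target, at -0.34 ± 0.06 with BRSK1. Of 16 mTORC1 regulators, AKT1S1 fell with both (-0.21 ± 0.06 and -0.33 ± 0.06) and NPRL3 with BRSK1 (-0.25 ± 0.07).

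**Figure D4:**
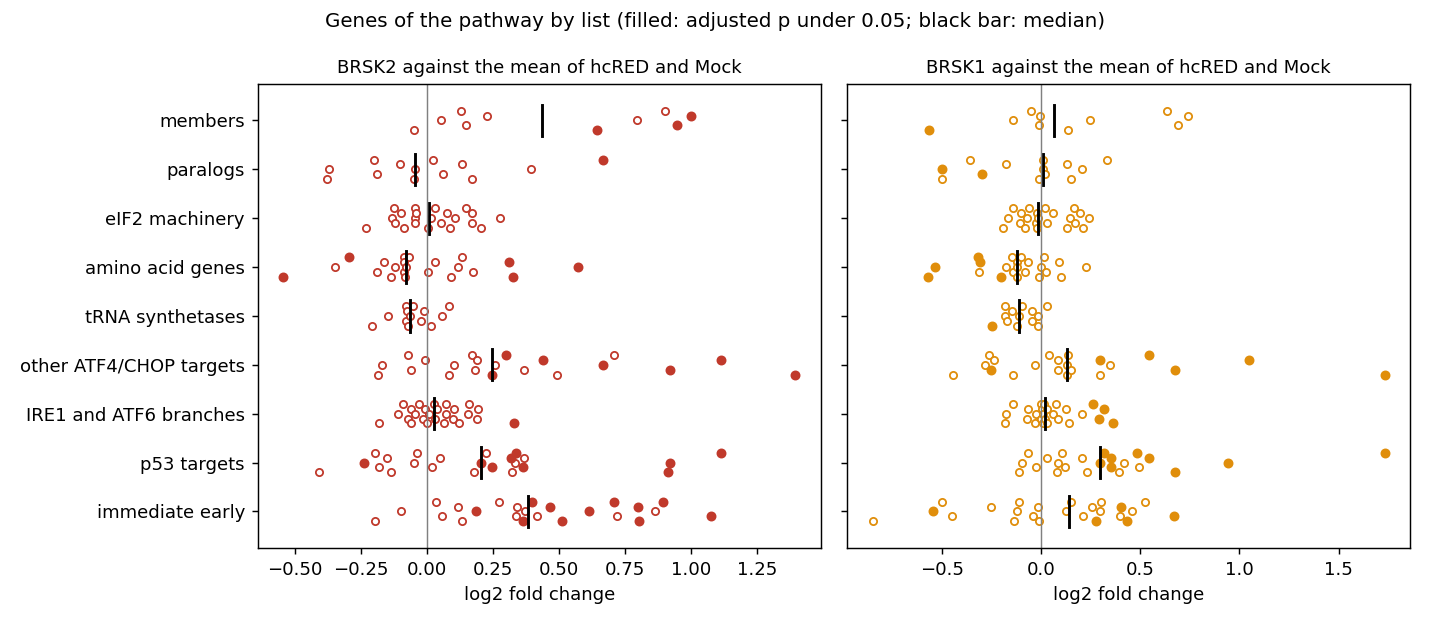
Log2 fold change of every tested gene of each list with BRSK2 (left) and BRSK1 (right) against the mean of hcRED and Mock, with 1 point per gene, filled where the adjusted p was under 0.05, and a black bar at the list's median. The eIF2 machinery holds no filled point in either panel, where 7.82% (BRSK2) and 6.43% (BRSK1) of all tested genes passed. Amino acid genes have filled points on both sides of 0 with BRSK2 and only below 0 with BRSK1.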

How the data were processed

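RNA from 10 HEK293T libraries was sequenced. The authors deposited raw read counts per gene with gene lengths, and tables of differential genes with log2 fold changes, scores and p-values. The submitters' processing notes name STAR, edgeR, limma and hg38. Not given in the sources used here were the annotation release, the tool that counted reads and whether it used strand. The members and lists were chosen with earlier results of these data known. From the deposited counts, genes passing filterByExpr (minimum count 10, total 15) were scaled by TMM and fitted in edgeR 4.0.16 (R 4.3.3) with 4 group means over all 10 libraries and robust quasi-likelihood dispersions. Contrasts were tested two-sided, with Benjamini-Hochberg adjustment over 16936 genes and a threshold of 0.05. Standard errors were computed as the absolute fitted value over the root of the F statistic. Totals of 16516116 to 24304302 counts and a biological coefficient of variation of 8.06% set the precision. From each list at most 4 called genes per kinase with the smallest p were named, and any paralog or eIF2alpha kinase. ASNS, PHGDH and STC2 fell outside that rule and were named after their values were seen. For each member the gene with the highest correlation was named, except for TRIB3, where it is not reported here. Alternatives were DESeq2 1.42.0, other scalings, no filter, a replicate block, each control alone and leaving out each library. The scripts were tested on simulated data.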

Additional observations from a re-analysis of the deposited data

How the results depend on the processing

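The number of genes called with BRSK2 against the controls (1325) was 3001 when scaled by library totals, which moved the median of all genes by -0.10, and 606 against hcRED alone. With BRSK1 (1089) it was 133 against hcRED alone, where 0 members were called lower, and DESeq2 called 1 member higher. Between the kinases (59) it was 206 with library totals, 188 with no filter and 189 with DESeq2. For hcRED against Mock (5) it was 128 with no filter, where 1 member was called lower, and 49 with DESeq2. Leaving out 1 library at a time gave 346 to 2211 genes with BRSK2, 204 to 1751 with BRSK1, 7 to 64 between the kinases and 0 to 49 between the controls. Members called higher then ranged from 2 to 7 with BRSK2, 0 to 2 with BRSK1 and 0 to 2 between the kinases, and members called lower from 0 to 1 with BRSK1 and 0 to 1 between the controls. The highest BRSK2 and BRSK1 counts were those without BRSK2 replicate 1. That library is not part of the BRSK1 comparison and enters it only through the shared filter, scaling and estimate of spread. The cause was not tested.

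With the replicate number as a block, 2153, 1999, 267 and 434 genes were called with BRSK2, with BRSK1, between the kinases and between the controls. Members called higher under the block were 5 with BRSK2, 2 with BRSK1 and 3 for hcRED against Mock (PPP1R15A 0.72, ATF3 0.44 and SESN2 0.31), where 1 was lower (DDIT4, -0.51). Whether the numbers pair the samples is not stated. Correlations of deviations between same-numbered libraries ran from -0.0511 to 0.161 (median 0.045), and 2 of 12 were over 0.1. Between libraries of different number the median was -0.057, and 0 of 25 were over 0.1. Of the 10 libraries, 6 correlated best with a library of their own number. In groups of 2 libraries the deviations mirror each other, so these values cannot decide whether the samples are paired.

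For hcRED against Mock the sign turned for ATF5 under the block (-0.050), for ATF5 (-0.15) and DDIT3 (-0.25) without hcRED replicate 1, for ATF3 without hcRED replicate 3 (-0.030), and for ATF4 (-0.077), ATF5 (-0.067), ATF3 (-0.024) and DDIT3 (-0.17) without Mock replicate 3. Leaving out 1 library at a time, the highest values of these were 0.22 for ATF4, 0.29 for ATF3 and 0.26 for DDIT3 without Mock replicate 2, and 0.15 for ATF5 without hcRED replicate 3. Depth limits DDIT3 most, with 33 to 104 reads per library.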
